A study of Xenopus tropicalis with 8 samples.

Results

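The genes fosl1, junb and atf3 belong to the AP-1 and ATF group of immediate early genes. They were found by matching the transcript that each probe was designed on, without its version number, to the RefSeq gene table of Xenopus tropicalis. Of 32899 probes on the array, which name 4639 genes, 3 matched, 1 for each gene, and all 3 were among the 25652 probes tested. The probes of junb (GT_EA519_mRNA_specific_006780) and atf3 (GT_EA519_mRNA_specific_009521) had 2 spots on each array. The probe of fosl1 (GT_EA519_mRNA_xhyb_005957) had 1 spot and carries the word xhyb in its name, and whether it also reads other transcripts was not tested.

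Testis tissue of juvenile male X. tropicalis frogs was kept in L-15 medium at 26 °C for 6 h with 5 µM finasteride, or in the same medium with none (0 µM). Finasteride inhibits steroid 5-alpha-reductase, the enzyme that turns testosterone into dihydrotestosterone. The series' text gives 8 samples for each arm, and 4 arrays of each were analysed here. The labels name no genotype, strain or age beyond the juvenile stage, and do not say whether an array holds a single animal or a pool. P-values therefore rest on the variation among these arrays alone, and that variation may be technical. On both slides finasteride arrays lay at positions 2 and 4 and control arrays at positions 1 and 3, which means that treatment and position cannot be told apart.

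AP-1 is a family of transcription factors that bind DNA as pairs, joined through a leucine zipper next to a basic DNA-binding stretch. Each pair usually holds a Jun protein such as junb and a Fos protein such as fosl1, or a relative such as atf3. Transcription of immediate early genes such as junb and atf3 starts within minutes of a growth signal, a hormone or a stress, without new protein synthesis. In rodents, gonadotropins and cyclic AMP induce Fos and Jun genes in Sertoli and Leydig cells, and in mammals atf3 responds to many kinds of cell stress.

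The 75th percentile of processed intensity, to which each array was scaled, ran from 896 to 1798 on finasteride arrays and from 719 to 1686 on control arrays. Between 70.5% and 86.9% of probes were well above background on finasteride arrays and between 73.3% and 77.2% on control arrays. Of the testis markers with a named probe, 2 of 2 germ cell genes (dnd1 and piwil1), 3 of 4 meiosis genes, 8 of 9 spermatid and flagellum genes, 5 of 6 Sertoli cell genes and 4 of 5 Leydig cell genes were well above background on all 8 arrays. The meiotic chromosome core gene sycp3 and the flagellum gene cfap70 were so on 0 arrays, the Sertoli cell gene gdnf on 2 and the Leydig cell gene dlk1 on 1. Of markers of other tissues, 8 of 11 kidney genes, 3 of 5 liver genes and 3 of 8 leukocyte genes were well above background on all 8 arrays.

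A level is the log2 processed intensity minus the array's 75th percentile over all probes, so that 0 stands for that percentile. The gene fosl1, which codes for the Fos-related protein FRA1, had levels of 1.67, 0.63, 2.08 and 1.59 on finasteride arrays 1 to 4. On control arrays 1 to 4 it had 2.08, 2.35, 1.92 and 1.54. Finasteride 2 was the lowest of the 8 arrays and control 2 the highest, and the groups overlapped. Finasteride 2 also had the highest 75th percentile of the 8 arrays (1798). Before scaling, its fosl1 intensity was 2776, above the 2407 of control 4. The gene junb, which codes for a Jun protein, stood at 2.13, 1.41, 2.53 and 1.52 on finasteride arrays 1 to 4, against 2.47, 2.71, 1.99 and 1.96 on control arrays 1 to 4. Again finasteride 2 was lowest and control 2 highest, and finasteride 3 lay above 3 of the 4 controls. The stress-responsive factor gene atf3 had levels of -2.68, -3.12, -2.47 and -2.54 on finasteride arrays 1 to 4, and of -2.26, -2.30, -2.61 and -2.12 on control arrays 1 to 4. Here finasteride 2 was lowest and control 4 highest, and control 3 was the control that reached into the finasteride values.

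**Figure D1:**
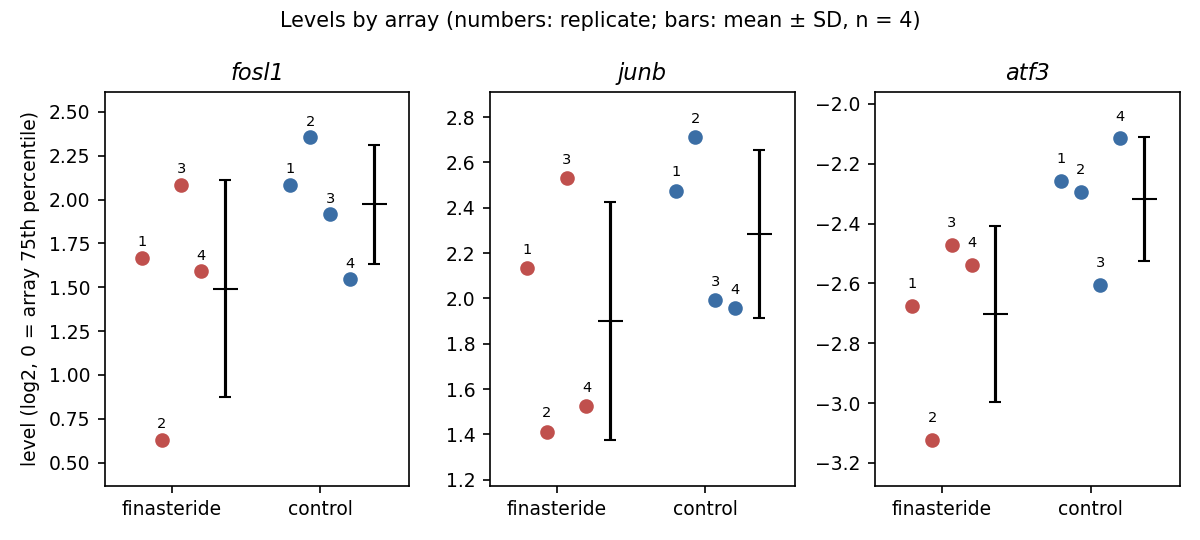
Levels of fosl1, junb and atf3 on each array (y axis, log2, with 0 at the array's 75th percentile), finasteride left and control right, with replicate numbers beside the points and bars for the mean ± SD of 4 arrays. The groups overlap for each gene, and finasteride 2 is the lowest point in all 3 panels.

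Whether finasteride altered these genes within 6 h is the question of the design. None of the 3 genes passed the threshold, an adjusted p of 0.05, and each had a lower mean with finasteride. For fosl1 the mean was 1.49 ± 0.62 with finasteride and 1.97 ± 0.34 in controls (SD, n = 4 each). Its log2 fold change was -0.48 (95% interval -1.17 to 0.20, limma adjusted p = 1.00), a fold of 0.716. For junb the mean was 1.90 ± 0.53 with finasteride and 2.28 ± 0.37 in controls (SD, n = 4 each). The difference, finasteride minus control on the log2 scale, was -0.38 (-1.02 to 0.25, adjusted p = 1.00 from limma). For atf3 the mean was -2.70 ± 0.29 with finasteride and -2.32 ± 0.21 in controls (SD, n = 4 each), and the difference was -0.38 (-0.82 to 0.05, adjusted p = 1.00 from limma). The intervals of all 3 genes hold both no change and a fall of more than 1.5-fold, so the number of arrays could not settle differences of that size. Fewer cells that express a gene and less of its RNA per cell cannot be told apart in whole tissue.

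Of all tested probes, 0% passed as higher with finasteride and 0% as lower, so the count of 0 among the 3 genes equals the background. At an unadjusted p under 0.05, 1.72% of probes were lower and 2.28% higher with finasteride, and none of the 3 genes was among them. Groups without overlap were found for 2.08% of probes, and for 0 of the 3 genes. A log2 fold change at or below that of fosl1 was found for 3.94% of probes, and at or below that of junb or atf3 for 6.14%.

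The size of these differences hung on a few arrays. Without finasteride 2, the log2 fold change was -0.19 for fosl1, -0.22 for junb and -0.24 for atf3. Without finasteride 3 it was -0.68 for fosl1, -0.59 for junb and -0.46 for atf3, and limma's adjusted p was 0.980 for each. When limma weighted arrays by their overall noise, finasteride 2 had a weight of 1.92 and finasteride 1 one of 0.354. The log2 fold changes were then -0.91 for fosl1, -0.69 for junb and -0.56 for atf3, with limma adjusted p = 0.452, 0.579 and 0.448 in that order. The sign stayed below 0 for each of the 3 genes without any single array and within each of the 2 slides. Within slide 2 the log2 fold change was -0.58 for fosl1, -0.20 for junb and -0.54 for atf3, and within slide 1 it was -0.38, -0.57 and -0.23 in the same order.

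The spots of a probe agreed far more closely than the arrays did. The mean difference between the 2 spots on an array was 0.067 for junb and 0.079 for atf3 on the log2 scale, and the greatest was 0.14 and 0.18. The SD over the 8 arrays was 0.53 for fosl1, 0.47 for junb and 0.31 for atf3. Of tested probes, 20.9% had an SD at least as high as junb, and fosl1 lay above junb. For atf3 that share was 50.3%, so it varied about as much as the median probe (0.31).

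The levels of fosl1 and junb moved together over the 8 arrays. Pearson's r was 0.87 (exact permutation p = 0.000521, two-sided, adjusted p = 0.00156 over the 3 pairs of genes) and Spearman's rho was 0.95 (exact permutation p = 0.00114, adjusted p = 0.00342). The arrays with the 3 highest levels were control 2, finasteride 3 and control 1 for both genes, in that order, and the lowest was finasteride 2 for both. Finasteride 4 stood apart a little, with a lower junb than its fosl1 level would place it. With each level centred on its group mean, r was 0.84 (permutation p = 0.00397, adjusted p = 0.0119), nearly as high inside the treatment groups as over them. That permutation mixed centred values over both groups without allowing for the centring, so its p is approximate and may be too small. With 1 array left out r ran from 0.83 to 0.95, and its adjusted p stayed under 0.05. Without finasteride 2 and control 2, the arrays farthest from the median of fosl1, r was 0.81 over 6 arrays (exact permutation p = 0.0486, adjusted p = 0.146).

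**Figure D2:**
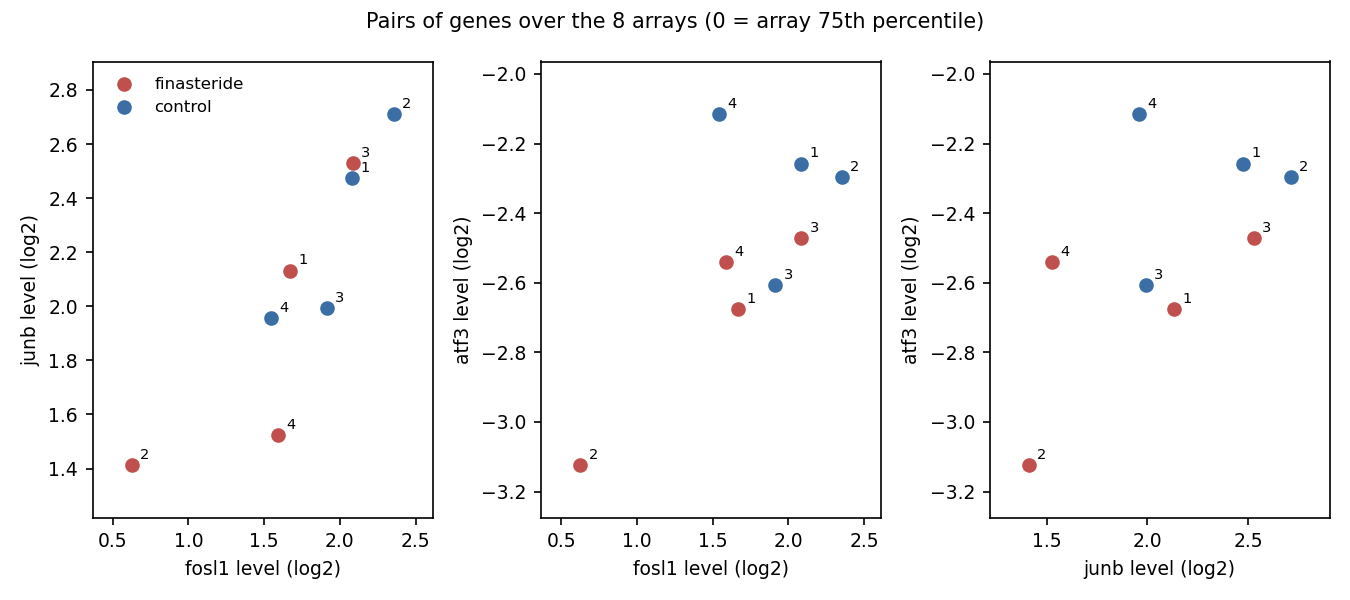
Levels of each pair of genes over the 8 arrays (log2, 0 = array's 75th percentile), red for finasteride and blue for control, with replicate numbers beside the points. The points of fosl1 and junb follow a line (r = 0.87) on which both groups are mixed, while the 2 panels of atf3 hang on finasteride 2 at the lower left.

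The 2 slides were compared as well, and none of the 3 genes passed. Of the 25652 tested probes 0 passed, so the count among the 3 genes equals the background. Before adjustment 491 of these probes passed, and of the 3 genes fosl1 alone was among them. On the 4 arrays of slide 2 fosl1 averaged 1.44 ± 0.56 and on the 4 of slide 1 it averaged 2.03 ± 0.32 (SD), a difference of -0.59 (95% interval -1.17 to -0.0071, limma adjusted p = 1.00, group as covariate). For junb the difference was -0.44 (-1.03 to 0.16) and for atf3 -0.24 (-0.67 to 0.19). With both group and slide removed, the r of fosl1 and junb was 0.76 (permutation p = 0.0287, adjusted p = 0.0860). It did not pass after adjustment, and its p is approximate for the same reason as after centring. No r is given within a slide, which holds 4 arrays. Array brightness moved little with these 2 genes: the r with the log2 75th percentile was -0.16 for fosl1 and -0.13 for junb, and with that percentile removed the r of the pair was 0.87. For atf3 the r with the 75th percentile was -0.57.

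The relation of atf3 to the other genes did not pass. With fosl1 its r was 0.73 (exact permutation p = 0.0519, adjusted p = 0.0779) and its rho 0.36, and with junb its r was 0.62 (exact permutation p = 0.0989, adjusted p = 0.0989) and its rho 0.43. Both rested on finasteride 2. Without that array r was 0.17 with fosl1 and 0.31 with junb, and without finasteride 2 and control 2 it was -0.027 and 0.19. Control 4 pulled the other way, since it had the highest atf3 level and the lowest fosl1 and junb levels among controls. Without control 4 and with finasteride 2 kept, r was 0.94 with fosl1 (exact permutation p = 0.00476, adjusted p = 0.00714) and 0.79 with junb (adjusted p = 0.0228). By Spearman's rho neither passed on those arrays, at 0.79 with fosl1 and 0.75 with junb (exact permutation, adjusted p = 0.0663 for each).

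These values were set against every named gene that was well above background on all 8 arrays, 3365 besides the gene itself. The median r with fosl1 was -0.013, with junb 0.0035 and with atf3 0.034. The gene junb stood 8th among them by its r with fosl1, in the top 0.238%, and fosl1 stood 7th by its r with junb, in the top 0.208%. By Spearman's rho each was 3rd for the other. The gene atf3 stood 39th by its r with fosl1 but 650th by rho, and 198th by its r with junb but 547th by rho. All of these genes share the same 8 arrays and their scaling, so the ranks describe these libraries and carry no test.

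**Figure D3:**
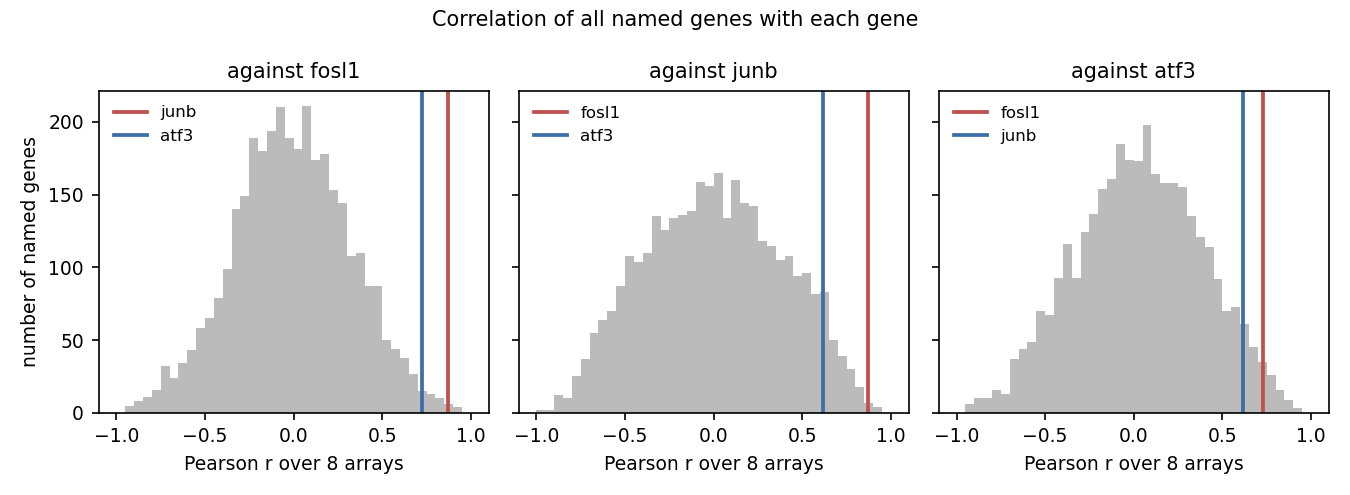
Number of named genes (y axis) by their Pearson r over 8 arrays (x axis) with fosl1, junb and atf3, with lines at the r of the other genes. The line for the partner of fosl1 or junb lies in the far right tail at 0.87, and the lines for atf3 at 0.73 and 0.62 lie further inside it.

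The 5 genes most like fosl1 by Pearson's r over the 8 arrays were atm (0.94), smcr8 (0.91), gab3 (0.91), bsk146 (0.90) and macf1 (0.88). The kinase gene atm is known for its role in the response to DNA breaks, and macf1 codes for a large protein that links actin and microtubules. The 5 most like junb were shisa1.2 (0.91), peak1 (0.90), sec16a (0.90), bdh1 (0.90) and macf1 (0.88), where sec16a marks the sites at which vesicles leave the endoplasmic reticulum and bdh1 is a ketone body enzyme. The gene macf1 was on both lists, with a rho of 0.90 for each, and like shisa1.2 and sec16a it was read from an xhyb probe. The 5 most like atf3 were slc4a10 (0.93), gpx1 (0.90), irf9 (0.90), hspa12a (0.89) and hsd17b1 (0.89). Among these gpx1, read from an xhyb probe, is a glutathione peroxidase, irf9 carries interferon signals to the nucleus, and hsd17b1 reduces estrone to estradiol. None of the 5 genes of atf3 was on the other 2 lists. Finasteride 2 was the lowest array for each of these 5, as for atf3 itself, and for each of the 5 most like fosl1. The rho of the 5 genes with atf3 ran from 0.76 for gpx1 to 0.93 for irf9. How far these likenesses rest on finasteride 2 was not tested.

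Of 52 genes listed for the AP-1, ATF and CREB family and its bZIP relatives, 20 had a named probe and 19 were tested. The one that was not, bach2, was well above background on 0 arrays. Besides the 3 genes, 11 of 16 were lower and 5 higher with finasteride, and 0 passed, where 48.7% of all named genes were lower. Their median log2 fold change was -0.17, against 0.0061 over all named genes. That median was -0.021 within slide 1, -0.057 within slide 2 and 0.32 with normexp background correction. Of the 16 genes, 12 had an r above 0 with junb and 11 each with fosl1 and atf3, against 51.4%, 47.6% and 52.9% of all named genes in that order.

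**Figure D4:**
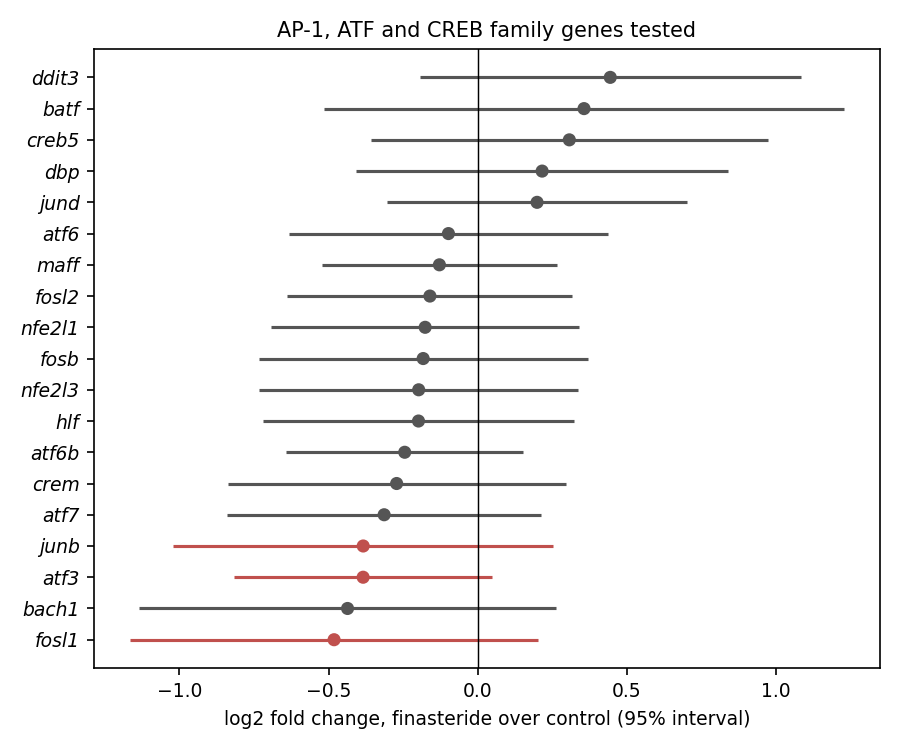
Log2 fold change of finasteride over control (x axis) with its 95% interval for the 19 AP-1, ATF and CREB family genes tested, with fosl1, junb and atf3 in red. Every interval holds 0, and the 3 genes lie among the 4 lowest estimates.

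Among the Fos genes, fosb had levels of 0.05, 0.53, 0.75 and -0.29 on finasteride arrays 1 to 4, against 0.54, 0.58, 0.08 and 0.59 on control arrays 1 to 4. Its log2 fold change was -0.18 (-0.73 to 0.37), and its r was 0.52 with junb and 0.12 with fosl1. The Fos gene fosl2 stood at -3.26, -3.25, -2.57 and -3.02 on finasteride arrays 1 to 4, against -2.91, -2.70, -3.24 and -2.60 on control arrays 1 to 4, a log2 fold change of -0.16 (-0.64 to 0.32). Its r was 0.75 with atf3, 0.57 with junb and 0.50 with fosl1. The r given for family genes were not centred on group means, so each includes any difference between groups. The Jun gene jund, often described as the steadily expressed Jun gene in mammals, averaged -1.74 ± 0.38 with finasteride and -1.93 ± 0.27 in controls (SD, n = 4 each), with r of -0.18 with junb and -0.22 with fosl1. It lay on the other side of 0 from junb in its fold change (0.20, -0.31 to 0.70). Whether the fold changes of jund and junb differ was not tested.

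Among ATF and CREB genes, atf7 had a log2 fold change of -0.31 (-0.84 to 0.21), atf6b -0.24 (-0.64 to 0.15) and atf6 -0.098 (-0.63 to 0.44). Their r with atf3 was 0.66, 0.62 and 0.32 in the same order. Control 4 was the highest array for atf7 and atf6b, as for atf3. The proteins of atf6 and atf6b are held in the endoplasmic reticulum membrane and are released from the endoplasmic reticulum when unfolded protein builds up. The gene crem, whose testis form switches on spermatid genes in mammals, had -0.27 (-0.84 to 0.29) and an r between -0.16 and -0.086 with the 3 genes. For creb5 the value was 0.31 (-0.36 to 0.97).

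Among the small Maf and CNC relatives, bach1, a heme-sensing repressor, had -0.44 (-1.13 to 0.26), nfe2l3 -0.20 (-0.73 to 0.34), nfe2l1 -0.18 (-0.69 to 0.34) and maff -0.13 (-0.52 to 0.26). The r of nfe2l3 was -0.53 with fosl1, and that of nfe2l1 was 0.63 with atf3. Control 4, the highest array for atf3, was also the highest for nfe2l1. The lymphoid factor gene batf had 0.36 (-0.52 to 1.23), and the clock-related genes hlf and dbp had -0.20 (-0.72 to 0.32) and 0.22 (-0.41 to 0.84). The stress factor gene ddit3, which pairs with other bZIP proteins, was well above background on 3 finasteride arrays and 0 control arrays. Its fitted difference was 0.44 (-0.19 to 1.08, limma adjusted p = 1.00), and it entered the test through the finasteride arrays. Within slide 2 the log2 fold change of ddit3 was -0.076 and within slide 1 it was 0.96. Limma's adjusted p was 1.00 for each gene of the family. With normexp over all spots the sign turned for fosl2 (0.41), atf6b (0.30), atf6 (0.22), maff (0.69), bach1 (0.80), hlf (0.43), nfe2l1 (0.11) and nfe2l3 (0.02), all of them below 0 in the values above, and fosb came to about 0. That setting moved the median of all tested probes to 0.23, and atf6, nfe2l1 and nfe2l3 lay below it. Signs also turned within slide 1 for jund (-0.017), creb5 (-0.025), fosl2 (0.01), atf6 (0.02) and hlf (0.05), and within slide 2 for maff (0.04) and crem, which came to about 0. Without finasteride 1 atf6 stood at 0.07, without control 4 nfe2l1 stood at 0.03, and without finasteride 4 fosb came to about 0. The value of batf was 0.077 without control 4 and 0.72 without control 3. Like fosl1, the genes fosb, jund, nfe2l1, ddit3 and hlf were read from xhyb probes.

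Other immediate early genes gave no call. Of 101 listed, 20 had a named probe and 16 were tested, of which 10 were lower (62.5%, against 48.7% of all named genes) and 6 higher, with a median of -0.065 and 0 called. An r above 0 was found with fosl1 for 7, with junb for 7 and with atf3 for 9 of the 16, near the shares of all named genes. The 4 genes of lowest p were cited4 at 0.41 (-0.15 to 0.97), the clock gene per1 at 0.26 (-0.19 to 0.70), klf5 at 0.25 (-0.21 to 0.70) and the DNA damage and stress gene gadd45b at -0.20 (-0.57 to 0.17). Of these cited4, read from an xhyb probe, was well above background on 3 finasteride and 2 control arrays. It entered the test through the finasteride arrays. The gene egr3 was well above background on 2 arrays and was not tested.

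Of 73 genes listed as kinases and factors upstream of AP-1, 17 were tested, 10 lower and 7 higher, with a median of -0.041 and 0 called. An r above 0 was found with atf3 for 7 of the 17, with fosl1 for 9 and with junb for 8. Among all named genes the shares were 52.9%, 47.6% and 51.4% in that order. The median r of the 17 genes with atf3 was -0.081. The stress kinase gene mapk14, which codes for p38 alpha and was read from an xhyb probe, had -0.37 (-0.83 to 0.10). Its r was 0.87 with atf3, 0.60 with fosl1 and 0.40 with junb. The factor gene elk4, a partner of serum response factor, had -0.35 (-0.76 to 0.07), nfkb1 0.22 (-0.21 to 0.65) and crtc1 -0.25 (-0.86 to 0.36). The sign turned with normexp over all spots for mapk14 (0.13), elk4 (0.17) and crtc1 (0.17), and within slide 1 for crtc1 (0.21). All 3 genes lay below the median of all tested probes under normexp (0.23). Of 64 genes listed as AP-1 or ATF targets in mammals, 15 were tested, 8 lower and 7 higher, with a median of -0.064 and 0 called. Of the 15, 5 had an r above 0 with atf3, 9 with fosl1 and 6 with junb. The growth factor gene tgfb2 moved against junb, with r = -0.89, and had a fold change of 0.31 (-0.31 to 0.94). Of the named genes well above background on all 8 arrays, 26 had an r of -0.8 or less with junb. The levels of tgfb2 were -3.43, -2.90, -3.80 and -2.49 on finasteride arrays 1 to 4 and -3.49, -3.72, -3.50 and -3.16 on control arrays 1 to 4. The matrix protease inhibitor gene timp3 had -0.31 (-0.90 to 0.28, and 0.092 with normexp) and the heme oxygenase gene hmox1 -0.69 (-1.14 to -0.25). The cytokine gene il1b, well above background on 3 finasteride and 0 control arrays, had a fitted difference of 0.80 (-0.05 to 1.65, limma adjusted p = 1.00) and entered the test through the finasteride arrays. Its log2 fold change was 0.045 with normexp without spots of high local background.

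Of 44 heat shock and culture stress genes, 9 were tested, 7 lower and 2 higher, with a median of -0.18 and 0 called. An r above 0 was found with atf3 for 8 of 9, and with fosl1 and with junb for 5 of 9 each. Among all named genes the shares were 52.9%, 47.6% and 51.4% in that order, and the difference was not tested. The r with atf3 was 0.90 for gpx1, 0.66 for angptl4, 0.55 for the heat shock protein gene hspa1b and 0.53 for hmox1. These r were not centred on group means. As atf3 and each of these genes had a lower mean with finasteride, they include the difference between groups. On finasteride arrays hspa1b (4.56) and angptl4 (-0.03) were lowest on finasteride 3, where atf3 was highest (-2.47). Among those arrays hmox1 was highest on finasteride 2 (0.27), where atf3 (-3.12) and gpx1 (-4.00) were lowest. Among controls, control 3 was lowest for atf3 and each of these genes. How much of each r lies within groups was not tested. The log2 fold change of gpx1 was -0.45 (-1.14 to 0.23), and 0.20 with normexp over all spots. For hspa1b (-1.01, -1.60 to -0.43), angptl4 (-0.81, -1.31 to -0.31) and hmox1 every finasteride array lay below every control array, as was the case for 1.06% of all probes, and limma's adjusted p was 1.00 for each. For fosl1, junb and atf3 the groups overlapped.

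Markers of other cells were set beside the 3 genes, as the r of each list's summed level with each gene. With fosl1 it ran from -0.80 for the single smooth muscle gene, lmod1, to 0.39 for 8 kidney genes, and with junb from -0.63 for lmod1 to 0.55 for the kidney genes. Taken gene by gene, 5 of the 8 kidney genes had an r above 0 with fosl1 and 6 with junb, with medians of 0.11 and 0.13. The level of lmod1 ran from -1.06 to -0.07 with finasteride and from -1.42 to -0.37 in controls. The summed level of the kidney genes ran from 3.65 to 3.96 with finasteride and from 3.64 to 3.82 in controls. The 4 Leydig cell genes had r = -0.47 with fosl1, and the 4 endothelium genes had r = -0.46 and the 5 leukocyte genes 0.41 with junb. Gene by gene, 2 of the 4 Leydig cell genes had an r above 0 with fosl1, with a median of -0.048. With junb 1 of the 4 endothelium genes (median -0.25) and 2 of the 5 leukocyte genes (median -0.022) did. The 4 liver genes had r = -0.44 with fosl1 and -0.53 with junb over 7 arrays, since alb had no value on 1 finasteride array, but taken singly fga had r = 0.63 with fosl1 and fgg -0.40. With atf3 the sum of 2 germ cell genes had r = -0.67, which was close to that of piwil1 alone (-0.69), while dnd1 had 0.64. The sum of 3 erythrocyte genes had r = 0.61 with atf3, where slc4a1 had 0.55, sptb 0.45 and epb41 -0.34. The level of slc4a1 ran from -4.67 to -3.53 with finasteride and from -4.94 to -0.75 in controls. The probes of rhag, an erythrocyte gene, and lyz, a leukocyte gene, were well above background on 0 arrays. What part these cells have in the levels of fosl1, junb and atf3 was not tested.

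The signal of atf3 was dim, with a processed intensity of 140 to 308, and the sign of its fold change depended on the background correction, while that of fosl1 and junb did not. With normexp, a model-based correction run on the median signals, its log2 fold change was 0.17 (limma adjusted p = 1.00), against -0.52 for fosl1 and -0.35 for junb, and the median of all probes was 0.23. Its levels were then -1.65, -2.74, -0.86 and -0.19 on finasteride arrays 1 to 4 and -1.79, -1.99, -2.27 and -0.08 on control arrays 1 to 4. The 3 highest values came from finasteride 4, finasteride 3 and control 4. On those arrays 19, 13 and 35 of 45220 spots had a local background over 10 times the array's median, and the greatest local background was 273536, 78800 and 328037. The noise that the model fitted was 3030, 989 and 4357 intensity units there, and between 1.04 and 85.2 on the other 5 arrays. With such spots left out on every array, a setting chosen after seeing these values, the fitted noise was between 1.04 and 13.8. The log2 fold change of atf3 was then -0.33 and the median of all probes -0.023. What turned the sign with normexp over all spots was not tested beyond this setting.

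**Figure D5:**
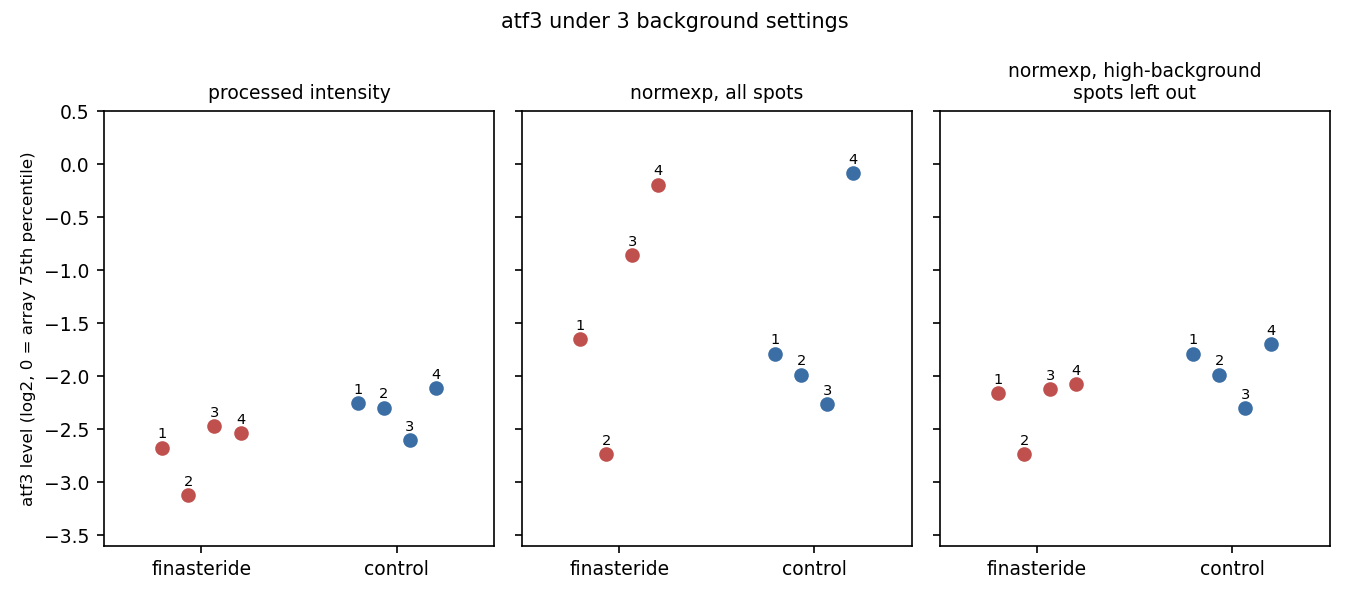
Level of atf3 on each array (y axis, log2, 0 = array's 75th percentile) from processed intensity, from normexp over all spots and from normexp without spots of high local background, finasteride left and control right. Finasteride 3, finasteride 4 and control 4 lie high in the middle panel and with the other arrays in the outer panels.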

How the data were processed

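Total RNA, extracted with TRIzol per the labels' protocols, was labelled with Cy3 and hybridised to Agilent arrays, 4 per group. The deposited scanner files hold a processed intensity per spot. Per the file headers, they came from version 10.7.1.1 of Agilent's Feature Extraction and use genome build JGI 4.1. Their deposited table holds log2 values, which matched a quantile normalization of log2 processed intensity over all spots within 0.0011.

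From the intensity, log2 was taken, outlier and control spots were left out, spots of a probe were averaged and each array's 75th percentile was subtracted. Probes well above background on at least 3 of 4 arrays of a group were tested with limma 3.58.1 in R 4.3.3 (lmFit, eBayes, group as the only term, two-sided), with Benjamini-Hochberg adjustment over all of them and a threshold of 0.05. A gene was read from its tested probe of highest mean level. Of 32899 probes 5891 matched a transcript in the RefSeq table of assembly UCB_Xtro_10.0, used for names alone because its build differs, and 4872 of these, of 4639 genes, had a gene symbol other than a LOC placeholder. Correlations across arrays used exact permutation of all pairings. Where group, slide or the 75th percentile had been removed first, the permutation did not allow for that, and its p is approximate. Intervals are 95% intervals of the limma fit.

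The genes, gene lists and tests were chosen with earlier results of these data known. Named were fosl1, junb and atf3, every tested gene of their family list, up to 4 genes of lowest p from each other list, and the 5 genes of highest r with each of the 3. The scripts were tested on simulated data. Alternatives were normexp on the median signals (the files hold no mean signal), quantile normalization, array median scaling, the authors' table, other filters on dim probes, slide and replicate blocks, array weights, single slides and each array left out. Promoter and protein comparisons were not analysed here. Same-numbered arrays deviated with correlations of 0.30, 0.36, -0.057 and -0.033. The same-numbered array was the best match for numbers 1 and 2 and not for 3 and 4. As this did not hold for every number, they were not taken as pairs, and the replicate block served as an alternative. The 75th percentiles of numbers 1 to 4 were 896, 1798, 1664 and 1115 with finasteride and 719, 1475, 1686 and 825 in controls. Whether same-numbered arrays were handled together was not tested. The number of arrays limits the precision, and the median half-width of an interval was 0.49.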

Additional observations from a re-analysis of the deposited data

Results flagged for a closer look

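Of 94 groups of 4 values of the named genes, 6 held an array far from the other 3, where chance gives about 1 in 20 (4.7 here). None of them was of fosl1, junb or atf3. Control 3 stood at 0.076 for fosb, with the other controls between 0.54 and 0.59, at -1.93 for atf6, with the others between -1.63 and -1.57, and at -3.40 for gpx1, with the others between -2.58 and -2.45. Control 4 stood at 1.09 for nfe2l3, with the other controls between 0.43 and 0.53. Finasteride 1 stood at -3.64 for maff, with the other finasteride arrays between -4.02 and -3.98, and finasteride 3 at -4.92 for cited4, with the others between -5.32 and -5.29.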

How the results depend on the processing

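Normexp without spots of high local background, correlations of unscaled intensity and the alternatives for list medians were chosen after seeing the data. None of the 3 genes passed under any alternative, and the fold changes of fosl1 and junb stayed below 0 under all of them. That of atf3 turned to 0.17 with normexp. With 1 array left out, probes called over the whole array numbered 0 to 7 (7 without control 3 and 2 each without finasteride 1, 2 or 4), and 1 was called within slide 2 and 1 with normexp without high-background spots. The r of fosl1 and junb was 0.83 to 0.95 with 1 array left out, 0.76 after group and slide and 0.81 without the 2 farthest arrays, the last 2 with an adjusted p over 0.05. With normexp the r of atf3 turned to -0.49 with fosl1 and -0.62 with junb, and without those 2 arrays it was -0.027 with fosl1. It passed with fosl1 after the 75th percentile was removed (0.78), by a permutation p that is approximate. It also passed on unscaled intensity with fosl1 (0.87) and junb (0.85), where the median named gene had an r of 0.75 with atf3. With 1 array left out it ran from 0.17 to 0.94 with fosl1 and from 0.31 to 0.79 with junb. List medians moved beyond the spread between arrays with normexp for the AP-1 family (0.32), other immediate early genes (0.11) and targets (0.23), where the median of all probes was also 0.23, within slide 1 (-0.021) and slide 2 (-0.057) for the AP-1 family, and within slide 2 for heat shock genes (-0.44). The cause of these moves was not tested. A replicate block left 0 probes past the threshold, with fosl1 at -0.48, and changed no other call. Each gene has 1 named probe, so averaging over probes was not run.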

Other observations

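Besides fosl1 and junb themselves, 8 genes had an r of at least 0.8 with both of them over the 8 arrays, a list noticed after the values were seen and given with no test. They were macf1 (0.88 with fosl1 and 0.88 with junb), bsk146 (0.90 and 0.87), smcr8 (0.91 and 0.84), peak1 (0.81 and 0.90), pebp1.1 (0.84 and 0.85), pcdh19 (0.84 and 0.83), hapln2 (0.82 and 0.82) and pgap6 (0.83 and 0.82). Finasteride 2 was the lowest array for each of these 8 genes, as for fosl1 and junb, and how far the list rests on it was not tested. For pcdh19 every finasteride array also lay below every control array, as for 1.06% of all probes, so its r includes the difference between groups. Taken singly, 20 genes reached an r of at least 0.8 with fosl1, 29 with junb and 28 with atf3, and 24, 26 and 26 had an r of -0.8 or less. Among those of atf3 was bhlhe40, a transcription factor gene of the circadian clock read from an xhyb probe, with r = -0.86. Its mean was 0.35 ± 0.07 with finasteride and 0.27 ± 0.06 in controls (SD, n = 4 each).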
